A study of Mus with 18 samples.

Results

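Genes of the myosin thick filament and its regulatory subunits, 10 in all, were followed across 2 mouse RNA-seq experiments. They are the light chain genes Myl1, Myl2, Myl3, Myl4 and Mylpf, the light chain kinase gene Mylk2, the myosin-binding protein C genes Mybpc1 and Mybpc2, and the M-band genes Myom1 and Myom2. Members were chosen by symbol, and each table lists all 10 among its 21401 genes. One table holds 9 libraries labelled C2C12, a mouse myoblast line, and the other holds 9 libraries of gastrocnemius muscle from wild type male C57BL/6 mice, with 3 libraries each for control, LPS-treated and LPS-MIC-1-treated samples. Lipopolysaccharide (LPS) is a bacterial cell wall component that provokes inflammation, and MIC-1 is moringa isothiocyanate-1, a compound isolated from moringa seeds.

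The muscle control group received vehicle, which the sample labels call saline and the study's text describes as DMSO. The muscle LPS group received LPS at 10 mg/kg by the intraperitoneal route, and the muscle LPS-MIC-1 group received the same LPS after 3 days of oral MIC-1 at 80 mg/kg. Muscles were taken 16 h after LPS. The cultures were vehicle-treated, treated with LPS at 1 μg/mL, or treated for 24 h with both LPS and MIC-1, for which the labels give 10 μM and the study's text on the transcriptome a lower concentration. Neither experiment had a group treated with MIC-1 alone, so each MIC-1 comparison is between samples that all received LPS, or between both agents and vehicle. The labels do not say that replicates came from separate animals or cultures, and p-values measure the spread between these libraries, which may be technical.

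The thick filament of the sarcomere is built of myosin heavy chains, each of which carries an essential and a regulatory light chain at its neck. Fast fibres use Myl1 as essential and Mylpf as regulatory light chain, while slow fibres and the heart ventricle use Myl3 and Myl2. Myl4 encodes an essential light chain of embryonic muscle and the heart atrium. The kinase encoded by Mylk2 phosphorylates the regulatory light chain of skeletal muscle in response to calcium and calmodulin, which strengthens contraction. Myosin-binding protein C lies along the filament and tunes cross-bridges, with Mybpc1 known as the slow and Mybpc2 as the fast skeletal form. Myomesins, encoded by Myom1 and Myom2, link the filaments at the M-band in the middle of the sarcomere.

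Levels are FPKM, fragment counts scaled by transcript length and library size, which are comparable between genes. Changes are log2 fold changes of FPKM + 0.1 from a limma fit of all genes with a mean over 1 FPKM, 9475 in muscle and 10877 in the C2C12 table. They understate the change of low genes. A gene was called at an adjusted p under 0.05 in muscle or 0.001 in the C2C12 table together with an absolute log2 fold change over 1, and "past the adjusted p" drops the demand on size. The number of reads per library is unknown, and no counting interval could be given. Replicates of a group correlated across genes with r between 0.968 and 0.993, and no pair of libraries was identical. Each table was tested on its own, since the tables were normalised apart.

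In muscle, the 10 genes ranged from Myl4, listed at 0 in 7 of 9 libraries, to Myl1. The latter ranked number 3 of all listed genes in each group, with 5.2% of the summed FPKM in the control group, 4.79% under LPS and 3.82% in LPS-MIC-1 samples. Together the 10 genes took 9.42% ± 0.00829, 9.23% ± 0.138 and 7.2% ± 0.258 of it (SD, n = 3). In control muscle the order by mean FPKM was Myl1, Mylpf, Mybpc2, Mylk2, Myom2, Myom1, Mybpc1, Myl3, Myl2 and Myl4. Neighbours in that order did not overlap between libraries except Myl2 and Myl4. The order was the same in LPS muscle, and in LPS-MIC-1 muscle Myl2 stood above Myl3, with no overlap.

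**Figure D1:**
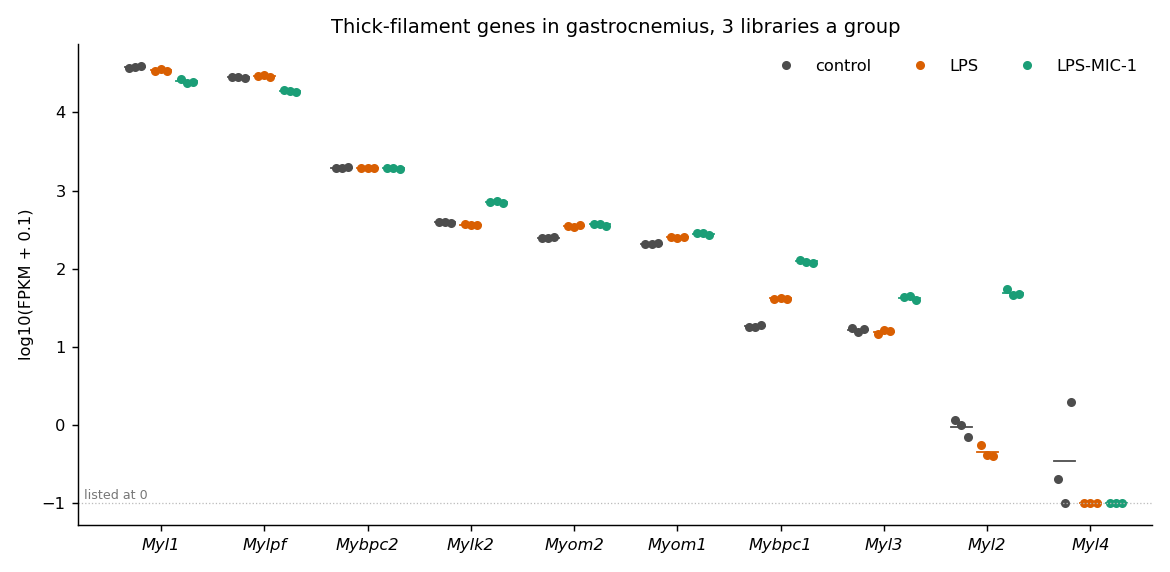
Level of each gene in gastrocnemius as log10(FPKM + 0.1), with 1 point for each of the 3 libraries of control, LPS and LPS-MIC-1 groups and a line at the mean of the logged values. Myl2 moved from between 0.304 and 1.06 FPKM in control and LPS libraries to between 45.9 and 54.1 FPKM in LPS-MIC-1 libraries, while Mybpc2 stayed between 1872 and 1974 FPKM.

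LPS alone moved 4 of the 9 members tested in muscle past the adjusted p, and 2 of these were called. Of the 9 members tested, Mybpc1 was called higher and Myl2 called lower, against 0.654% of all genes called higher and 0.591% called lower. Past the adjusted p at any fold, 3 members rose (Mybpc1, Myom1 and Myom2) and 1 fell (Myl2), against 8.25% and 7.48% of all genes. Myl2 averaged under 1 FPKM in both groups compared and passed the filter only through the LPS-MIC-1 libraries, so nothing is read from its place in these counts.

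LPS-MIC-1 muscle differed from LPS muscle in most members tested. Myl2, Myl3 and Mybpc1, the slow-type members, were called higher, and none was called lower, against 9.67% and 5.44% of all genes. Past the adjusted p, 5 members rose (these 3, Mylk2 and Myom1) and 2 fell (Myl1 and Mylpf), while 28.3% of all genes rose and 28.2% fell. Against control, the same comparison of LPS-MIC-1 muscle called Myl2, Myl3 and Mybpc1 higher and none lower, beside 9.33% and 6.12% of all genes. Past the adjusted p it had 6 members higher and 2 lower, beside 30.0% and 28.5%. With so many genes past the adjusted p without a demand on size, a passing p alone said little about a member. Since Myl2 had to differ in LPS-MIC-1 muscle to be tested at all, its call is a description, and among the other 8 members tested Myl3 and Mybpc1 were called higher. The 2 MIC-1 comparisons share the LPS-MIC-1 libraries.

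**Figure D2:**
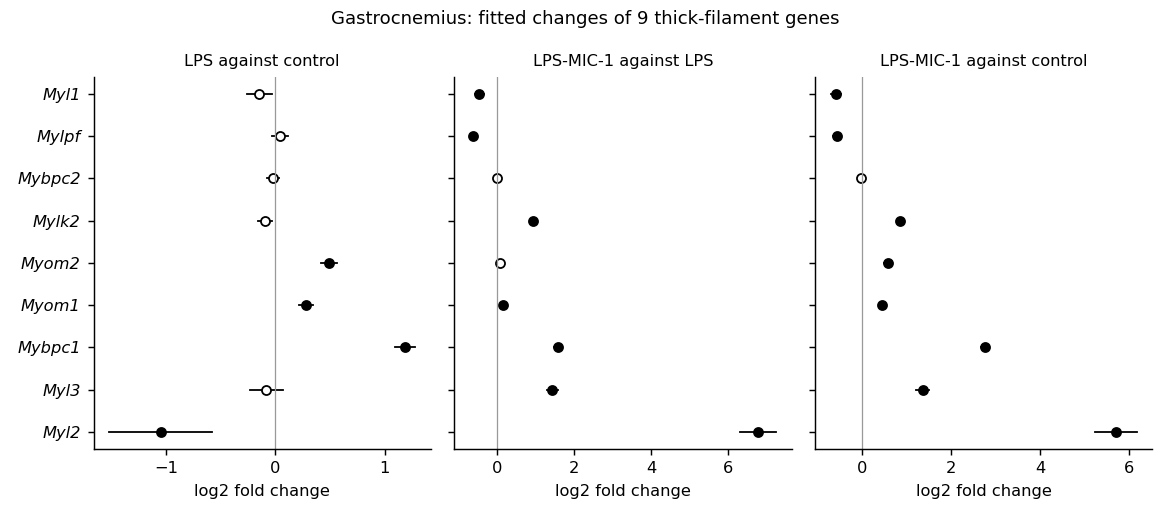
Fitted log2 fold change in gastrocnemius of the 9 genes tested, with 95% intervals from limma, for LPS against control, LPS-MIC-1 against LPS and LPS-MIC-1 against control; filled points are past the adjusted p of 0.05, and the first panel has a narrower axis. Myl2 fell by 1.05 with LPS and was higher by 6.77 in LPS-MIC-1 than in LPS samples, and Myl1 and Mylpf lay at -0.46 and -0.63 in the latter comparison.

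Myl1, the essential light chain of fast fibres, was the most abundant member. It measured 36976, 38027 and 39458 FPKM in control libraries, 33982, 35740 and 33774 in LPS libraries, and 27047, 24095 and 24302 in LPS-MIC-1 libraries. The 3 groups did not overlap. Its mean in LPS-MIC-1 muscle was 72.9% of that in LPS muscle, a log2 fold change of -0.46 (SE 0.0489, limma adjusted p = 7.86e-05). The step from control to LPS, at -0.15 (95% interval -0.258 to -0.0329), did not pass after adjustment (adjusted p = 0.084).

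Mylpf, the regulatory partner, measured 28306, 28764 and 27396 FPKM in the control group, 29012, 29706 and 28459 under LPS and 19401, 18758 and 18192 in LPS-MIC-1 libraries. Control and LPS overlapped, and all LPS-MIC-1 values lay below both. The LPS-MIC-1 mean was 64.6% of the LPS mean, with a log2 fold change of -0.63 (SE 0.0318, adjusted p = 8.72e-07). For LPS against control the difference was 0.05, with an interval from -0.0274 to 0.119.

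The size of both falls depended on how libraries were scaled. After quantile normalization, which gives the genes of highest rank the same value in each library, the median of all genes moved to -0.12 for LPS-MIC-1 against LPS, and Myl1 no longer passed (-0.05, adjusted p = 0.263). Relative to that median Myl1 then lay at 0.08 and Mylpf at -0.125, and against control both lay above the median, at 0.06 and 0.02. With each library scaled to the same sum of FPKM, the median moved to 0.12, and relative to it Myl1 lay at -0.45 and Mylpf at -0.62. The 10 most abundant genes of a group took 44.2% of FPKM in the control group, 41.7% under LPS and 35.7% in LPS-MIC-1 muscle.

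Myl2, the regulatory light chain of slow fibres, had the largest change of the family. It measured 1.06, 0.9 and 0.603 FPKM in the control group, 0.459, 0.309 and 0.304 under LPS and 54.1, 45.9 and 47.8 in LPS-MIC-1 libraries. No groups overlapped. LPS muscle held 41.8% of the control mean, a log2 fold change of -1.05 (SE 0.205, adjusted p = 0.0111). That call rests on values under 1.1 FPKM and on a size close to the threshold: it was lost at a log2 fold change of -0.44 with a pseudocount of 1, and at between -0.89 and -0.99 without control replicate 1, without LPS replicate 2 or 3, or after quantile normalization. In a fit of only the 6 control and LPS libraries, Myl2 was below the filter. From LPS to LPS-MIC-1 muscle the change was 6.77 (SE 0.205, adjusted p = 4.24e-08), which ranked number 8 in absolute size among the 9475 genes. The mean in LPS-MIC-1 muscle was 57.6 times the control mean.

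Myl3, the essential light chain that pairs with it, measured 17.2, 15.4 and 16.6 FPKM in the control group, 14.6, 16.1 and 15.8 under LPS and 43.5, 44.1 and 39.2 in LPS-MIC-1 libraries. Control and LPS overlapped, with a log2 difference of -0.08 and an interval from -0.233 to 0.0709. LPS-MIC-1 muscle held 2.73 times the LPS mean (log2 fold change 1.44, SE 0.0662, adjusted p = 5.01e-07). By mean FPKM, Myl3 stood far above Myl2 in control muscle (16.4 and 0.855) and slightly below it in LPS-MIC-1 muscle (42.3 and 49.3).

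Myl4 was not tested in muscle, since its mean was under 1 FPKM. It was listed at 0 in all LPS and LPS-MIC-1 libraries and measured 0.105, 0 and 1.88 FPKM in control libraries, so a single control library held most of it.

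Mylk2 measured 393.8, 392.1 and 387.9 FPKM in the control group, 371.5, 367.4 and 362.7 under LPS and 715.7, 725.9 and 682.8 in LPS-MIC-1 libraries. The 3 groups were apart. The kinase transcript rose in LPS-MIC-1 against LPS muscle, with a mean 1.93 times as high and a log2 fold change of 0.95 (SE 0.0276, adjusted p = 3.39e-08), short of the size needed for a call. It passed that size after quantile normalization (1.02) and with equal sums (1.08). LPS against control gave -0.09 (interval -0.155 to -0.0281, adjusted p = 0.0602).

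Mybpc1 was called higher at both steps, which no other member was. It measured 17.9, 17.9 and 18.8 FPKM in the control group, 40.8, 42.2 and 41.4 under LPS and 129.9, 122.6 and 119.5 in LPS-MIC-1 libraries, with wide gaps between groups. LPS muscle held 2.28 times the control mean (log2 fold change 1.18, SE 0.0406, adjusted p = 1.41e-06), and LPS-MIC-1 muscle held 2.99 times the LPS mean (1.58, SE 0.0406, adjusted p = 1.69e-08). Across both steps the mean rose 6.81 times.

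Mybpc2, the fast form, measured 1960, 1968 and 1974 FPKM in the control group, 1945, 1926 and 1944 under LPS and 1935, 1969 and 1872 in LPS-MIC-1 libraries. The LPS-MIC-1 values covered the range of the LPS values. The log2 difference was -0.01 for LPS-MIC-1 against LPS, with an interval from -0.0627 to 0.0435, and -0.03 against control, with an interval from -0.0843 to 0.0218. Relative to the median of all genes the former difference was 0.005 under quantile normalization and 4.25e-05 under equal sums, although the scaled values themselves, -0.12 and 0.12, then passed the adjusted p (0.0027 and 0.000614).

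The M-band genes rose with LPS. Myom1 measured 206.6, 204.5 and 213.1 FPKM in the control group, 255.2, 248.4 and 255.2 under LPS and 284.5, 284.6 and 272.4 in LPS-MIC-1 libraries, and the groups did not overlap. Myom2 measured 249.4, 245.1 and 255.2 FPKM in the control group, 355.7, 344.1 and 357.2 under LPS and 376.8, 378.2 and 356.2 in LPS-MIC-1 libraries, where the last groups overlapped. For LPS against control the log2 fold changes were 0.28 for Myom1 (SE 0.029, adjusted p = 0.000504) and 0.50 for Myom2 (SE 0.0322, adjusted p = 4.97e-05). The further step to LPS-MIC-1 was 0.15 for Myom1 (adjusted p = 0.00252), and for Myom2 it was 0.07 with an interval from -0.002 to 0.146 (adjusted p = 0.0893).

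Ratios of members within a library do not change when each library is scaled by a single factor. Myl2 per 100 FPKM of Mylpf was 0.00303 ± 0.000781 in the control group, 0.00123 ± 0.000305 under LPS and 0.262 ± 0.0171 in LPS-MIC-1 muscle (SD, n = 3). Myl3 per 100 Myl1 went from 0.0431 ± 0.00313 and 0.045 ± 0.00196 to 0.168 ± 0.0127. Even in LPS-MIC-1 muscle, the slow light chains thus remained rare beside their fast partners. Mybpc1 per 100 Mybpc2 was 0.925 ± 0.0231, 2.14 ± 0.0478 and 6.44 ± 0.249 in the same order. Mylk2 per 100 Mylpf, the kinase beside the transcript of its substrate, was 1.39 in the control group, 1.26 under LPS and 3.77 in LPS-MIC-1 muscle on average.

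Myom2 per 100 Myom1 was 120.1 ± 0.542 in the control group, 139.3 ± 0.732 under LPS and 132.0 ± 1.12 in LPS-MIC-1 muscle so that each LPS library lay above, and each LPS-MIC-1 library between, the other groups. Mylpf per 100 Myl1 was 73.9 ± 3.88, 84.2 ± 1.13 and 74.8 ± 3.06, where LPS libraries lay above the others and LPS-MIC-1 overlapped control. Of 18 comparisons of 6 ratios, 16 had groups that did not overlap, each with a 2-sided exact permutation p = 0.1, the smallest that 3 against 3 libraries allow. The other 2 were Myl3 per Myl1 for LPS against control (exact permutation p = 0.4) and Mylpf per Myl1 for LPS-MIC-1 against control (exact permutation p = 0.7). No ratio could therefore reach 0.05.

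**Figure D3:**
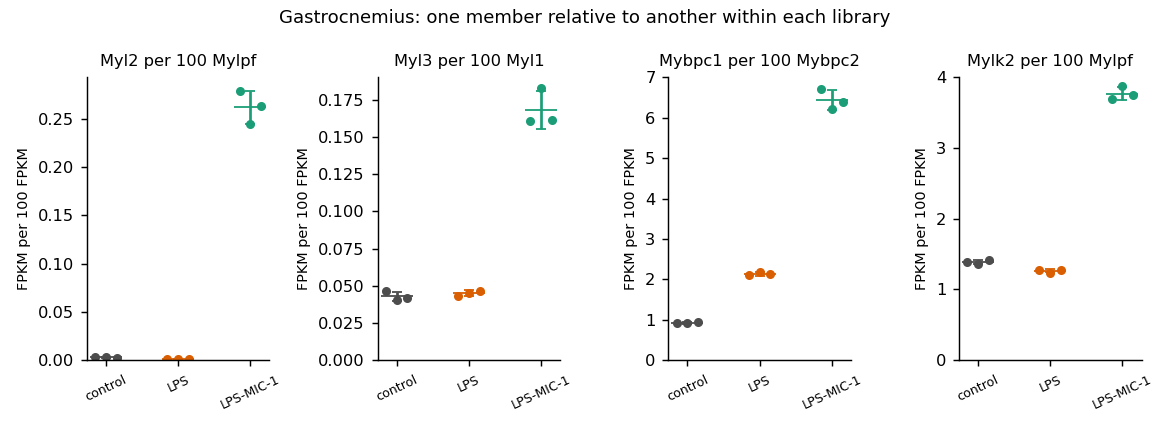
FPKM of 1 gene per 100 FPKM of another within each gastrocnemius library, with points for the 3 libraries of each group, a dash at the mean and bars of 1 SD; each panel has its own linear axis from 0. Slow-type genes stood highest beside their fast partners in LPS-MIC-1 libraries, with Mybpc1 per 100 Mybpc2 between 6.22 and 6.71, and Mylk2 per 100 Mylpf averaged 3.77.

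Other slow-fibre genes were read in the same comparison, in which 9.67% of all genes were called higher and 5.44% lower. Of a list of 11 slow-fibre genes, all found and 10 tested, 7 were called higher and 1 lower in LPS-MIC-1 against LPS muscle. Of these, Myh7, Tnnt1 and Tnni1 averaged over 1 FPKM in LPS-MIC-1 muscle alone, so that the filter let them in only because they were high there. Of the other 7 tested, 4 were called higher (Tnnc1, Tpm3, Atp2a2 and Pln) and 1 lower. Tnnt1 and Myh7, the slow troponin T and the slow heavy chain, had the largest fold changes, 6.28 and 5.82. Casq2, a calcium store protein of slow and heart muscle, fell by 1.77. The summed FPKM of the list was between 25.5 and 31.3 in the 6 control and LPS libraries and between 128 and 134 in the 3 LPS-MIC-1 libraries, which is low beside sums of 126000 to 165000 FPKM for the fast-fibre list over all groups. Of 11 fast-fibre genes, none was called and 2 rose and 6 fell past the adjusted p, with a median of -0.11. Myh1 and Myh2, both fast heavy chains, lay at -0.83 and 0.46.

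With LPS alone, the slow-fibre list had 1 gene called higher (Myoz2 at 1.36, an anchoring protein of the Z-disc) and 1 called lower (Tnni1, slow troponin I, at -1.68). Of all genes, 0.654% were called higher and 0.591% lower with LPS. Tnni1 averaged under 1 FPKM in both groups and was tested only through its level in LPS-MIC-1 muscle. In the fast-fibre list, Myh1 was called higher at 1.95, from between 77.7 and 82 FPKM in control to between 302 and 311 in LPS libraries, and Myh2 rose by 0.40.

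**Figure D4:**
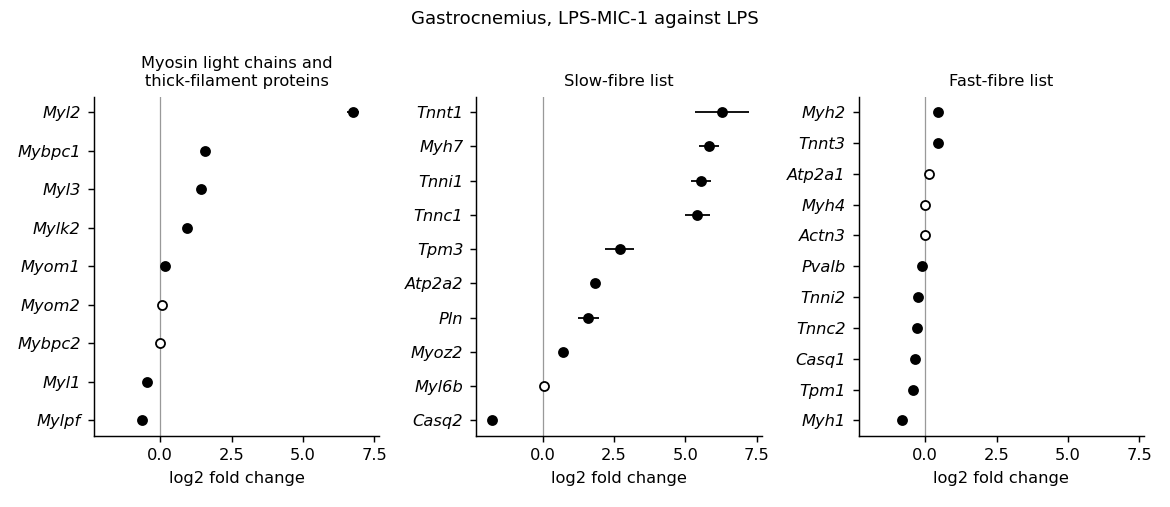
Log2 fold change in gastrocnemius for LPS-MIC-1 against LPS of the tested light chain and thick-filament genes, of a slow-fibre list and of a fast-fibre list, with bars of 1 SE; filled points are past the adjusted p of 0.05. Myl2 (6.77) lies above every gene of the slow-fibre list, of which Tnnt1 and Myh7 changed most, while fast-fibre genes lie between -0.83 and 0.46. Myl2, Myh7, Tnnt1 and Tnni1 averaged over 1 FPKM in LPS-MIC-1 muscle alone, so the filter fixed their direction.

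Cell type markers were read beside these values. Of the 6 heart markers, Myl7 was listed at 0 in all 9 muscle libraries, Mybpc3 did not exceed 0.0499 FPKM, and Myh6 and Tnni3 did not exceed 0.254. Nppa lay between 0.440 and 0.872 FPKM in control, 0.331 and 0.559 in LPS and 0.394 and 0.934 in LPS-MIC-1 libraries. Tnnt2, which developing skeletal muscle also uses, rose from between 0.663 and 0.809 to between 2.03 and 2.71 FPKM from LPS to LPS-MIC-1 muscle. Macrophage markers summed to between 19.3 and 29.3 FPKM in the 6 control and LPS libraries, to 39.4 and 36.6 in LPS-MIC-1 replicates 1 and 2 and to 198 in replicate 3. None of the 11 was at 0 in every LPS-MIC-1 library. Of 8 tested, 3 (Cd14, Cd52 and Fcer1g) were called higher than in LPS muscle, beside 9.67% of all genes. Cd14 averaged over 1 FPKM in LPS-MIC-1 muscle alone, so the filter fixed its direction. Among the other 7 tested, Cd52 and Fcer1g were called higher. With LPS-MIC-1 replicate 3 left out, again 3 members were called higher than in LPS muscle, Myl2 at 6.79, and Myom2 also passed the adjusted p, at 0.10. Neutrophil markers summed to between 0.216 and 0.91 FPKM in control and LPS and between 8.98 and 15.1 in LPS-MIC-1 libraries. Smooth muscle markers summed to between 30.6 and 42.3 in the former and between 18.6 and 20.9 in the latter. Endothelial markers summed to between 51.6 and 52.8 FPKM in control muscle, 30.5 and 31.4 under LPS and 30.3 and 34.8 in LPS-MIC-1 muscle. Their median lay between 7.49 and 8.37, 4.36 and 5.39, and 2.35 and 2.74 FPKM in the same order. Fibroblast markers summed to between 117 and 124 in the 6 control and LPS libraries and between 134 and 152 in LPS-MIC-1 libraries, where 2 of 6 tested (Col1a1 and Col3a1, at -1.50 and -1.21) were called lower than in LPS muscle. The fibroblast median went the other way from the sum, from between 11.5 and 12.3 to between 4.9 and 6.11 FPKM. Past the adjusted p, 4 of the 6 fell and 1 rose, beside 28.2% and 28.3% of all genes. Of all genes, 5.44% were called lower. The part of these cell types in the members' values was not tested. In whole tissue, fewer cells of a type and less RNA per cell cannot be told apart.

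Other proteins of the thick filament and M-band changed unevenly. Of 15 genes found and 9 tested, 1 was called higher (Myh7) and 1 lower (Mybph) in LPS-MIC-1 against LPS muscle, with a median of 0.00. Of all genes, 9.67% were called higher and 5.44% lower. Myh7 passed the filter through LPS-MIC-1 muscle alone, and of the other 8 tested, only Mybph was called. Mybph, a relative of myosin-binding protein C, went from between 357 and 394 FPKM in control to between 584 and 595 in LPS and between 167 and 191 in LPS-MIC-1 libraries, with log2 fold changes of 0.66 (adjusted p = 0.000155) and -1.71 (adjusted p = 5.58e-08). Beside it, Mybpc1 lay at 1.58 and Mybpc2 at -0.01 in the latter comparison. With LPS alone, 1 gene of the list was called higher (Myh1) and none lower, beside 0.654% and 0.591% of all genes.

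Of 12 further light chain and kinase genes found and 9 tested, 1 was called higher (Myl10 at 1.76, with LPS libraries at 0.353 to 1.9 FPKM and LPS-MIC-1 libraries at 2.82 to 3.63) and 1 lower (Myl9, the smooth muscle regulatory chain, at -1.03). For LPS-MIC-1 against LPS muscle, 9.67% of all genes were called higher and 5.44% lower. Mylk, the smooth muscle and non-muscle kinase, fell by 0.40 where Mylk2 rose. None of the list was called for LPS against control, where Myl10 and Myl12b lay at -1.49 (adjusted p = 0.0758) and -0.48 (adjusted p = 0.0142).

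In a list of 11 assembly and turnover genes, all tested, 3 were called higher and none lower in LPS-MIC-1 against LPS muscle. Of all genes, 9.67% were called higher and 5.44% lower. Trim63, a ubiquitin ligase of the M-band that is known to target myosin-binding protein C and light chains, went from between 73.9 and 83.2 to between 2206 and 2323 FPKM (log2 fold change 4.84). Fbxo32, a further atrophy ligase, changed by 3.35. The heavy chain chaperone Unc45b and its partner Smyd1 fell by 0.55 and 0.50. With LPS alone none was called, and Fhl1 and Fbxo32 lay furthest, at 0.72 and -0.61, both past the adjusted p.

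The genes whose log2 level was most like that of a member over the 9 muscle libraries were named by Pearson r, as a description, since all points share the 3 groups. For Myl2 they were Klf6, Klf15 and Errfi1, with r between 0.998 and 0.999, and Klf15 went from 8.58 and 5.34 FPKM in control and LPS to 88.7 in LPS-MIC-1 muscle on average. For Mylk2 they were Txnip, B4galt1 and 4931406P16Rik (r at least 0.999), and for Mybpc1 Rnf115, Lmcd1 and Dpp8 (0.996 to 0.998). Mylpf was most like Cited4, Ptpla and 9330159F19Rik (0.996 to 0.997). Myl1 was most like Srp14, Mrps15 and Ndufs5 (0.989 to 0.994), and Myl3 most like Adamts9, Rsad2 and Smcr8 (0.997). Myom1 was nearest to Synpo2, Got1 and Fosl2 (0.990 to 0.994), and Myom2 to St3gal5, Dupd1 and Ccnk (0.988 to 0.995). Mybpc2, with little variation, reached only 0.926 with 1700037H04Rik and Esd and 0.915 with Zfp408.

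The C2C12 table must be read with the identity of its libraries in view. Markers of macrophages, 11 genes found of 12, summed to 10500 FPKM in each library labelled control and to between 7420 and 7660 in those labelled LPS, with none at 0. Myogenic genes, 8 in all, summed to between 0.136 and 0.361 and between 0.301 and 1.99 FPKM in these groups, with 4 and 3 genes at 0 throughout. The libraries labelled LPS-MIC-1 held the reverse, with 80.1 to 280 FPKM for the macrophage list, highest in replicate 1, and 702 to 911 for the myogenic list. The defining markers of myoblasts were thus near 0 in the 6 libraries labelled control and LPS. Treatment and the cells in the libraries cannot be told apart in the comparisons with the LPS-MIC-1 libraries. In their replicate 3, the lowest values of the table most often stood at 2.16 times those of control replicate 1, against 1.13 to 1.39 for the other LPS-MIC-1 libraries.

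**Figure D5:**
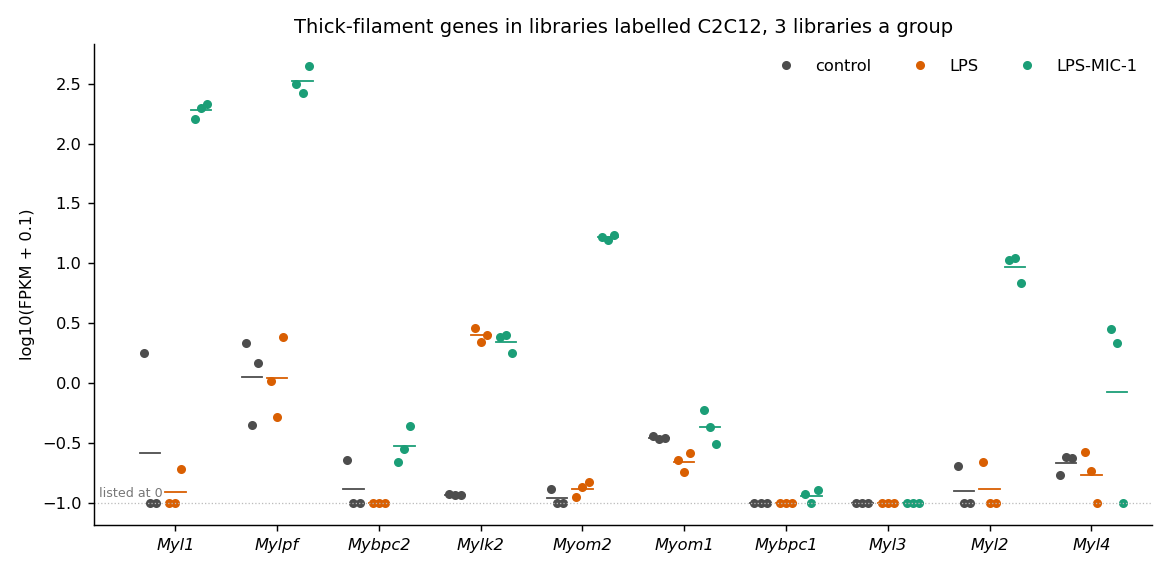
Level of each gene in the libraries labelled C2C12 as log10(FPKM + 0.1), with 1 point for each of the 3 libraries of the control, LPS and LPS-MIC-1 groups and a line at the mean of the logged values. Myl1, Mylpf, Myom2 and Myl2 were high in LPS-MIC-1 libraries only, up to 444.9 FPKM for Mylpf, while Mylk2 was already between 2.1 and 2.78 FPKM in LPS libraries.

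Of the 10 members, 5 passed the filter on low values (Myl1, Mylpf, Myl2, Mylk2 and Myom2). Mylpf averaged over 1 FPKM in every group, and the others passed only through groups in which they were high. In the libraries labelled LPS against those labelled control, Mylk2 was called higher, beside 10.9% of all genes called higher and 10.0% lower. In LPS-MIC-1 against LPS libraries, the other 4 were called higher, beside 24.3% and 25.6%. In LPS-MIC-1 against control libraries, all 5 of these were called higher, beside 21.1% and 22.1%. Myl1, Myl2 and Myom2 averaged over 1 FPKM in LPS-MIC-1 libraries alone and were tested only because they were high there, so these counts are not read against the shares of all genes.

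Myl1 measured 1.68, 0 and 0 FPKM in the libraries labelled control, 0, 0 and 0.0939 in those labelled LPS, and 160.4, 196.2 and 213.6 in those labelled LPS-MIC-1. Only the last group had it in every library. The log2 fold change for LPS-MIC-1 against LPS was 10.56 (SE 1.02, adjusted p = 1.85e-05), and it spanned 7.53 to 13.08 with other pseudocounts and scalings because of the libraries at 0. Mylpf, the most abundant member there, measured 2.05, 0.351 and 1.39 FPKM in the control group, 0.94, 0.425 and 2.33 under LPS and 313, 264.8 and 444.9 in LPS-MIC-1 libraries. Control and LPS libraries overlapped, and the step to LPS-MIC-1 was 8.24 (SE 0.688, adjusted p = 7.21e-06).

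Myl2 measured 0.103, 0 and 0 FPKM in the control group, 0.121, 0 and 0 under LPS and 10.5, 11 and 6.79 in LPS-MIC-1 libraries, with a log2 fold change of 6.16 against LPS (SE 0.414, adjusted p = 1.83e-06). Myl3, its partner in slow fibres, was listed at 0 in all 9 libraries. Myl4, the embryonic essential chain, was at 0.0711, 0.14 and 0.139 FPKM in the control group, 0.167, 0.0848 and 0 under LPS and 2.75, 2.06 and 0 in LPS-MIC-1 libraries. It fell below the filter, and without the filter its log2 fold change against LPS was 2.32 (interval -0.341 to 4.98, adjusted p = 0.0985). The LPS-MIC-1 library at 0 was replicate 3.

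Mylk2 had a pattern of its own. It measured 0.018, 0.0179 and 0.0177 FPKM in the control group, 2.78, 2.1 and 2.43 under LPS and 2.34, 2.43 and 1.67 in LPS-MIC-1 libraries. LPS and control libraries did not overlap (log2 fold change 4.42, SE 0.178, adjusted p = 4.06e-07). The size of this change spanned 1.75 to 6.45 with other pseudocounts and scalings, because the control values were near 0. Mylk2 passed the filter only through the groups in which it was high. LPS-MIC-1 overlapped LPS, with a difference of -0.18 and an interval from -0.597 to 0.228. In the LPS libraries its mean of 2.44 FPKM stood above the 1.23 FPKM of Mylpf, its substrate chain, although their ranges overlapped. The genes most like it over the 9 libraries were Lims2, Errfi1 and Renbp (r = 0.996), of which Lims2 averaged 1.97, 93.6 and 87.5 FPKM in the 3 groups.

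Of the myosin-binding proteins and myomesins, Myom2 alone was tested. It measured 0.0313, 0 and 0 FPKM in the control group, 0.0124, 0.0372 and 0.0493 under LPS and 16.4, 15.7 and 17.1 in LPS-MIC-1 libraries, a log2 fold change of 6.96 against LPS (SE 0.172, adjusted p = 8.95e-09). Myom1 stayed under 0.501 FPKM in all 9 libraries, at 0.262, 0.24 and 0.247 in the control group, 0.127, 0.0806 and 0.16 under LPS and 0.501, 0.33 and 0.209 in LPS-MIC-1 libraries. The myomesins therefore stood far apart in the LPS-MIC-1 libraries, whereas in muscle they lay close together. In the control and LPS libraries both were near 0, with Myom1 above Myom2. Mybpc2 did not exceed 0.343 FPKM, and Mybpc1 did not exceed 0.0287.

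Other sarcomere lists were read in the same libraries. For LPS-MIC-1 against LPS there, 24.3% of all genes were called higher and 25.6% lower. In LPS-MIC-1 against LPS libraries, the fast-fibre list had 7 of 7 tested genes called higher and the slow-fibre list 6 of 7. Of these genes 5 and 3 averaged over 1 FPKM in LPS-MIC-1 libraries alone, so the filter largely fixed their direction. The others called were Tnni2 and Tpm1 in the former and Tnnc1, Tpm3 and Myl6b in the latter. The largest were Tnnt3 and Tnnc2 in the former and Tnni1 and Tnnt1 in the latter. In the other thick filament list, Mybph, Myh3 (the embryonic heavy chain) and Obsl1 were the 3 tested and all were called higher, each having passed the filter through LPS-MIC-1 libraries alone. Mybph was at 0 in each control and LPS library and between 23.6 and 26.6 FPKM in LPS-MIC-1 libraries, and Myh3 rose by 5.46. In the further light chains, 3 of 5 tested were called higher, among them the non-muscle chain Myl6, which went from between 260 and 290 to between 1003 and 1296 FPKM, and Myl9, listed at 0 before. Myl9 too had passed the filter through LPS-MIC-1 libraries alone, and of the other 4 tested, Myl6 and Myl6b were called higher. Of the assembly genes 6 of 8 were called higher, with Trim54 and Fhl1 furthest, and 4 of the 8 tested (these, Smyd1 and Trim55) had passed through LPS-MIC-1 libraries alone.

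In LPS against control libraries of that table, the other thick filament list had none called of 3, the assembly list none of 8, the fast-fibre list 1 lower of 7 (Tnni2 at -1.40) and the slow-fibre list 2 higher of 7. The latter were the light chain gene Myl6b at 1.06, which the further light chain list also holds, and Tnnc1, slow and cardiac troponin C, at 3.42 (from between 0.842 and 1.04 to between 9.95 and 12.3 FPKM). For LPS against control, 10.9% of all genes were called higher and 10.0% lower. The genes most like Myl1 in that table were Acta1, Tnnt3 and Atp2a1 (r between 0.995 and 0.998), all of muscle fibres. Those most like Mylpf were Jsrp1, Ppbp and Mras (0.992 to 0.996), those most like Myl2 were Casq1, Gsto2 and 2700081O15Rik (0.997), and those most like Myom2 were Gpx3, Fgd1 and Bcr (at least 0.999).

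Control muscle and the LPS-MIC-1 libraries labelled C2C12 were set side by side, with no test because the tables were normalised apart. The same pair of members led in each, in a different order. In control muscle the fast pair Myl1 and Mylpf averaged 38150 and 28160 FPKM, and in the LPS-MIC-1 libraries labelled C2C12 they averaged 190.1 and 340.9 FPKM, with Mylpf above Myl1 and no overlap. Mybpc2, number 3 in muscle, was number 8 of 10 there.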

How the data were processed

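The authors pseudoaligned reads with kallisto and deposited FPKM per gene symbol and library, normalised apart for C2C12 and muscle; FPKM here is a level scaled for transcript length and sequencing depth. The submitters' processing notes name the mouse build mm9. The muscle file also held 9 columns of values with no sample name, which were not used, and 6 deposited tables of DESeq2 fold changes and p-values were not used. The model for each table used limma 3.58.1 (R 4.3.3) and the log2 of FPKM + 0.1, with 3 groups, an eBayes trend, genes with a mean over 1 FPKM, and Benjamini-Hochberg adjustment over all genes tested. No reads per library are given in the sources used here, so a value near 0 may rest on few reads. The members, lists and tests were chosen with earlier results of these data known. Named genes were all members, the 2 genes of each list with the largest absolute change, the 3 most like each tested member by Pearson r, and cell type markers. Casq2, Mybph, Myl9, Mylk, Mybpc3, Tnni2, Myl6b, Unc45b, Smyd1, Trim55, Tpm1, Tpm3, Atp2a2, Pln, Tnni1, Myl6 and Tnnc1 were in addition named after their values were seen where the rule did not select them. Of the list genes, Smpx, Mylk4, Cd68, Hba-a1 and Ly6g had no row by symbol. The fit was tested on simulated data with 200 changed genes set at random, each moved by a log2 fold change of 2 up or down. Those left after the filter were recovered at 74.1 to 79.1% in C2C12 and 91.2 to 94.1% in muscle comparisons. Smaller changes were not simulated. Alternatives were pseudocounts of 1 and 0.01, no filter (above 0 in at least 3 libraries), a mean over 5 FPKM, median-ratio scaling, quantile normalization, equal sums, a replicate block, no eBayes trend, fits of just the 6 libraries of a comparison, and each library left out. Figures were drawn with matplotlib 3.10.9.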

Additional observations from a re-analysis of the deposited data

Results flagged for a closer look

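Opposite directions in the 2 experiments, with no overlap between the groups of either, were found for 3 members. The log2 fold change of Myl1 for LPS-MIC-1 against LPS was 10.56 in the libraries labelled C2C12 and -0.46 in muscle, and against control it was 9.499 and -0.60. That of Mylpf was 8.24 and -0.63 against LPS, and 8.20 and -0.58 against control. That of Mylk2 for LPS against control was 4.42 in the libraries labelled C2C12 and -0.0916 in muscle. The former spanned 1.75 to 6.45 with other pseudocounts and scalings. In muscle Mylk2 did not pass the adjusted p. In the C2C12 table Myl1 averaged over 1 FPKM in LPS-MIC-1 libraries alone, so the filter fixed its direction. Mylk2 passed that filter only through the groups in which it was high. After quantile normalization in muscle, Myl1 and Mylpf lay at 0.08 and -0.125 against LPS, relative to the median of all genes. Against control they lay at 0.06 and 0.02. The differences between the experiments were not tested, because the tables were normalised apart. In the C2C12 table, marker levels of the LPS-MIC-1 libraries differ from those of the control and LPS libraries, as given above. Both groups compared there for Mylk2 were high in macrophage markers and near 0 in myogenic genes, unlike muscle.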

How the results depend on the processing

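Counts of members called, and of members past the adjusted p, were within 1.5 times the reported ones under most alternatives. The exceptions were as follows. With a mean over 5 FPKM required, none was called (0) for LPS against control in the C2C12 table and 3 for LPS-MIC-1 against control, by either rule, as Mylk2 and Myl2 were then below the filter. For LPS against control in muscle, 1 was called with a pseudocount of 1, after quantile normalization, with only the 6 libraries compared, and without control replicate 1 or LPS replicate 2 or 3 (range 1 to 2 over libraries left out), and 7 were past the adjusted p after quantile normalization. Signs reversed for small values. In the C2C12 table, LPS against control gave Myl2 -0.0403 after quantile normalization, -0.0182 with equal sums, and -0.34 to 0.38 with libraries left out, negative without control replicate 2 or 3 or LPS replicate 1. Myl1 ranged from -1.76 to 0.32, positive without control replicate 1, and Mylpf from -0.70 to 0.49, positive without control replicate 1 or 3 or LPS replicate 1 or 2. In muscle, Mybpc2 gave 0.00532 for LPS against control, 0.12 for LPS-MIC-1 against LPS and 0.13 against control with equal sums, and -0.026 to 0.0106 for LPS-MIC-1 against LPS with libraries left out, positive without LPS-MIC-1 replicate 3. The ratio of Mylpf per 100 Myl1 for LPS-MIC-1 against control had a fold of 0.983 to 1.03 with libraries left out, under 1 without LPS-MIC-1 replicate 2 or control replicate 3. Myl1 in muscle no longer passed after quantile normalization, at -0.05 against LPS (adjusted p = 0.263) and against control (adjusted p = 0.261), which by construction gives a gene of unchanged rank the same value; over all alternatives its adjusted p against LPS ranged from 2.98e-05 to 0.263. In the C2C12 table, equal sums moved the median of all genes to -0.305 for LPS against control. For LPS-MIC-1 against control it moved from -0.0601 to -0.437. Equal sums of FPKM were chosen after seeing the data. With a replicate block, 1, 4 and 5 members were called in the C2C12 table and 2, 3 and 3 in muscle, the reported counts. Same-numbered libraries deviated together with r from -0.0757 to 0.0573 in the C2C12 table and -0.054 to 0.0823 in muscle. Libraries of different number had r from -0.091 to 0.121 and -0.0745 to 0.0811, so no pairing by number was seen in the values. Whether the samples were handled in matched sets is not known. The lack of read counts limits all statements on values under 1 FPKM.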
